A study of Mus musculus with 6 samples.

Results

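The 42 mouse genes described here belong to the interferon response and to antigen presentation. They were taken by symbol and grouped by role into 4 receptor genes, 4 signal transducer and interferon regulatory factor (IRF) genes, 4 genes of RNA sensing, 16 antiviral effector genes, 4 genes of feedback and ADP-ribosylation, and 10 genes of antigen presentation. All 42 were found among the 23420 gene rows of the count table. Of these, 27 were abundant enough to be tested, among 12672 tested genes.

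The cells were keratinocytes, the epithelial cells of the skin, grown from mouse epidermis and profiled by mRNA sequencing. In both groups Gata6, which encodes a zinc finger transcription factor, carried loxP sites on both alleles (Gata6 fl/fl). The 3 libraries labelled iKO (induced knockout), named iKO 3, iKO 4 and iKO 33, also carried K14CreERT2, a Cre recombinase activated by tamoxifen and driven by the keratin 14 promoter, which is active in basal keratinocytes. The 3 libraries labelled WT, named WT 2, WT 3 and WT 4, were Gata6 fl/fl without K14CreERT2. Both groups were at passage 8 to 10, were kept in medium low in calcium, and received 1 µM 4-hydroxytamoxifen for 6 hours. The labels give neither strain nor age. They name no separate culture or animal behind a library, and the spread on which p-values rest may therefore be technical. The labels name no interferon, virus or other immune stimulus.

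Libraries held 32751896 to 83337263 gene counts in the iKO group and 21943467 to 79055307 in the WT group. The gene targeted in iKO cells did not follow its labels: Gata6 measured 14.2 to 21.0 CPM (counts relative to the scaled library total) in the libraries labelled iKO, against 0.519 to 5.37 CPM in those labelled WT (log2 fold change 2.60, edgeR adjusted p = 0.180, DESeq2 adjusted p = 0.00208). Counts per gene do not show whether the floxed exons were lost. Every direction below compares libraries by their labels. Xist, transcribed from the inactive X chromosome, measured 0.0823 to 2.62 CPM in the libraries labelled iKO and 604 to 888 CPM in those labelled WT, and the Y-linked gene Kdm5d measured 15.3 to 22.9 CPM in the libraries labelled iKO and 0 CPM in every library labelled WT. Sex and genotype label therefore cannot be told apart in these libraries. The 8 keratinocyte markers summed to 34782 to 50698 CPM in the libraries labelled iKO and 33060 to 45954 CPM in those labelled WT, most of it Krt5 and Krt14. Trp63, which encodes the basal keratinocyte factor p63, was lower in every library labelled iKO, at 203, 191 and 205 CPM in iKO 3, iKO 4 and iKO 33, against 331, 307 and 323 CPM in WT 2, WT 3 and WT 4. Its log2 fold change was -0.68 (SE 0.10), with an adjusted p of 0.0529 in edgeR, 9.65e-09 in DESeq2 and 0.0438 in limma-voom. Krt15, another basal keratin gene, averaged 5.23 ± 3.28 CPM in the libraries labelled iKO and 12.7 ± 5.08 CPM in those labelled WT (SD, n = 3 each, edgeR adjusted p = 0.289), and the groups overlapped for it and for the other 6 markers. The part of Trp63 and Krt15 in the results was not tested. Of 10 immune cell markers, 8 stayed under 1 CPM in every library, Cd207, Emr1 and Tyrobp had no count anywhere, and the list summed to 3.46 to 3.71 CPM in the libraries labelled iKO and 2.36 to 6.23 CPM in those labelled WT, nearly all of it Cd68 and Csf1r. Fibroblast markers summed to 0.959 to 3.38 CPM in the libraries labelled iKO and 0.691 to 2.64 CPM in those labelled WT. Melanocyte markers summed to 5.69 to 8.47 CPM in the libraries labelled iKO and 6.08 to 11.9 CPM in those labelled WT. Endothelial markers summed to 7.29 to 8.94 CPM in the libraries labelled iKO and 9.31 to 19.0 CPM in those labelled WT. Nearly all of this was Kdr and Pecam1, while over all 6 libraries Tek had 12 counts, Cdh5 had 1 and Emcn had 0. The part of these markers in the results was not tested. In such bulk samples fewer cells expressing a gene and less RNA per cell cannot be told apart.

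Interferons are secreted proteins that warn cells of viral infection. Type I interferons bind the receptor of Ifnar1 and Ifnar2, and interferon gamma binds that of Ifngr1 and Ifngr2. JAK kinases on the receptors then phosphorylate STAT proteins. STAT2 and IRF9 are part of the complex ISGF3, which binds the interferon-stimulated response element (ISRE) in the promoters of antiviral genes, while the gamma-activated site (GAS) serves the response to interferon gamma. Interferon gamma also raises the peptide-loading genes of MHC class I, through which every nucleated cell displays fragments of its own proteins to T cells. Keratinocytes are the barrier cells of the skin and can mount both programmes.

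The cultures expressed the receptors and most of the class I presentation pathway, and had few transcripts of the classical antiviral effectors. Levels are compared between genes as TPM, the counts divided by exon length and scaled to the same sum in each library, averaged over the 6 libraries. By this measure 14 of the 42 genes stood at 10 TPM or more and 19 below 1 TPM. Beta-2-microglobulin (B2m), the shared light chain of MHC class I, stood highest at 231 TPM, above 94.7% of tested genes. None of the 27 tested genes passed edgeR's quasi-likelihood test between the groups after Benjamini-Hochberg adjustment over all genes at 0.05, where 0.339% of all tested genes passed. Their adjusted p-values ran from 0.144 to 0.997. DESeq2 with the same filter also called 0 of them (6.12% of all genes) and limma-voom called 0 (0.466%).

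**Figure D1:**
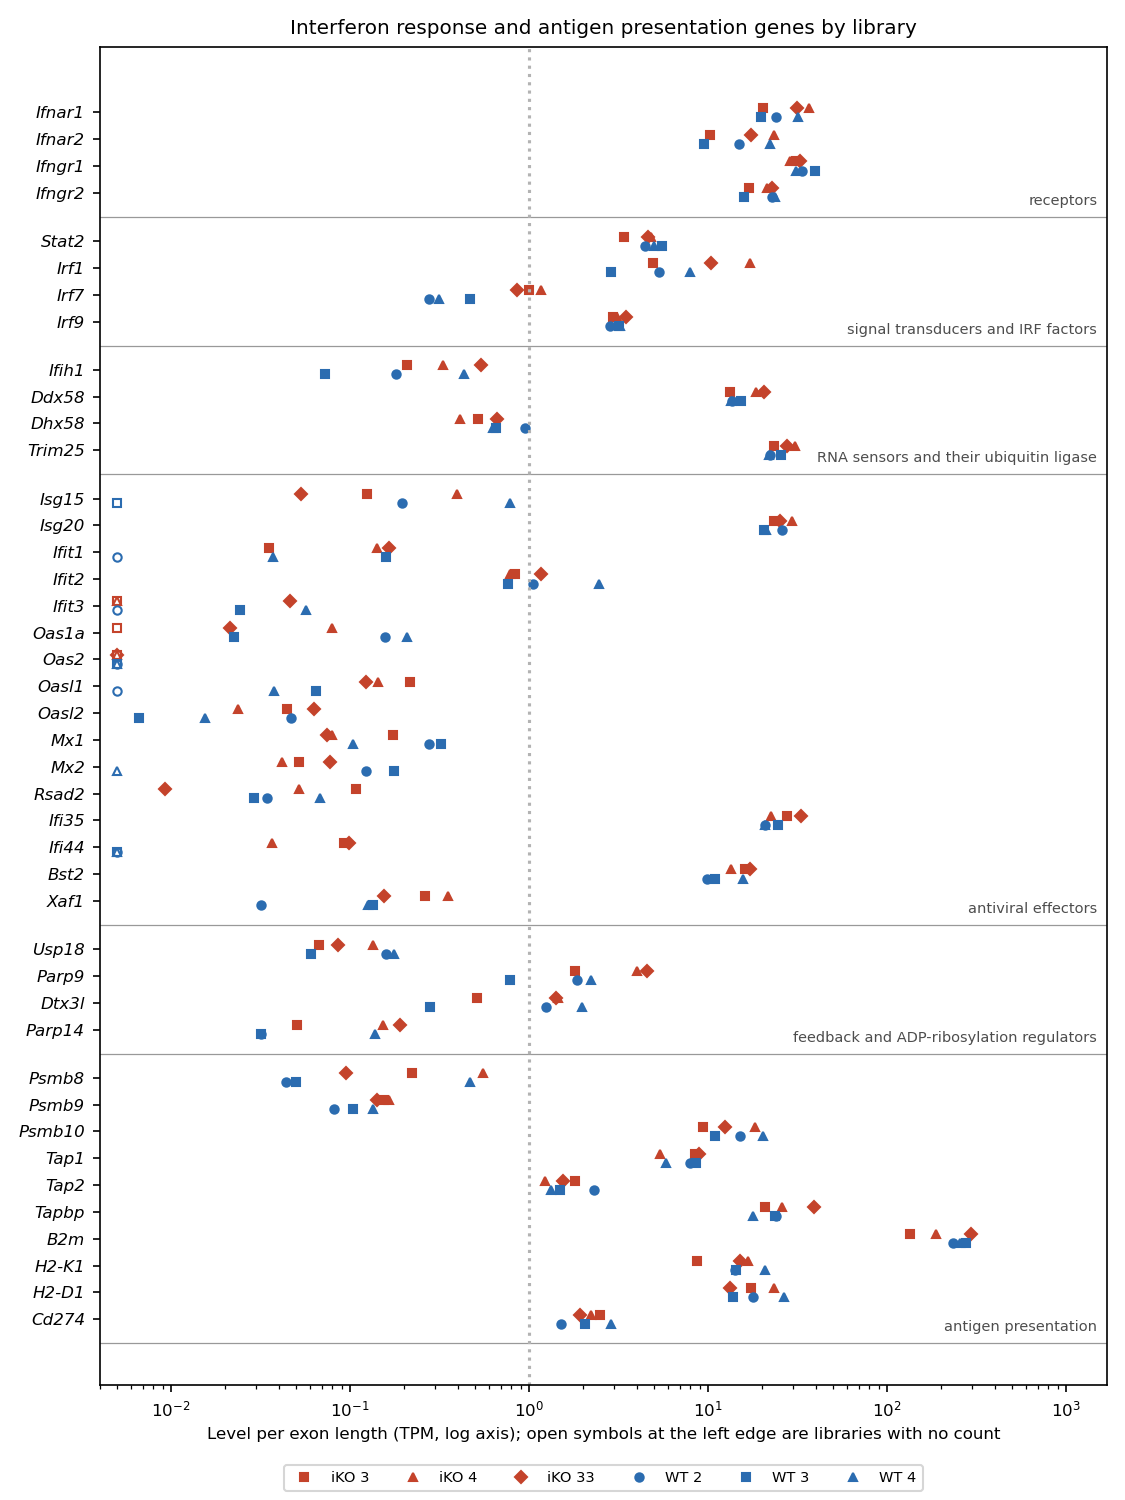
Level of each of the 42 genes in each library, in TPM on a log axis, grouped by role, with libraries labelled iKO (red) drawn above libraries labelled WT (blue) and open symbols at the left edge for libraries with no count. Receptor genes lie right of the dotted line at 1 TPM, while 12 of the 16 antiviral effectors and Usp18, Psmb8 and Psmb9 lie left of it in every library.

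Without adjustment, 3 of the 27 had a p under 0.05 in edgeR, against 15.0% of all tested genes. All 3 were higher in the libraries labelled iKO, as were 7.32% of all tested genes at that p. The groups did not overlap for 2 of the 27, Irf7 and Trim25, against 21.9% of all tested genes, and both stood higher in the libraries labelled iKO (10.5%). By sign, 17 stood higher in the libraries labelled iKO (51.2% of all tested genes) and 10 stood lower (48.8%). The median log2 fold change of the 27 was 0.10, with a range of -0.55 to 1.52, and that of all tested genes was 0.01. All 27 were past the count filter in libraries of both groups. The spread between libraries of a group was larger than usual for these genes: its median was 0.34 on the log2 CPM scale, against 0.24 over all tested genes.

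**Figure D2:**
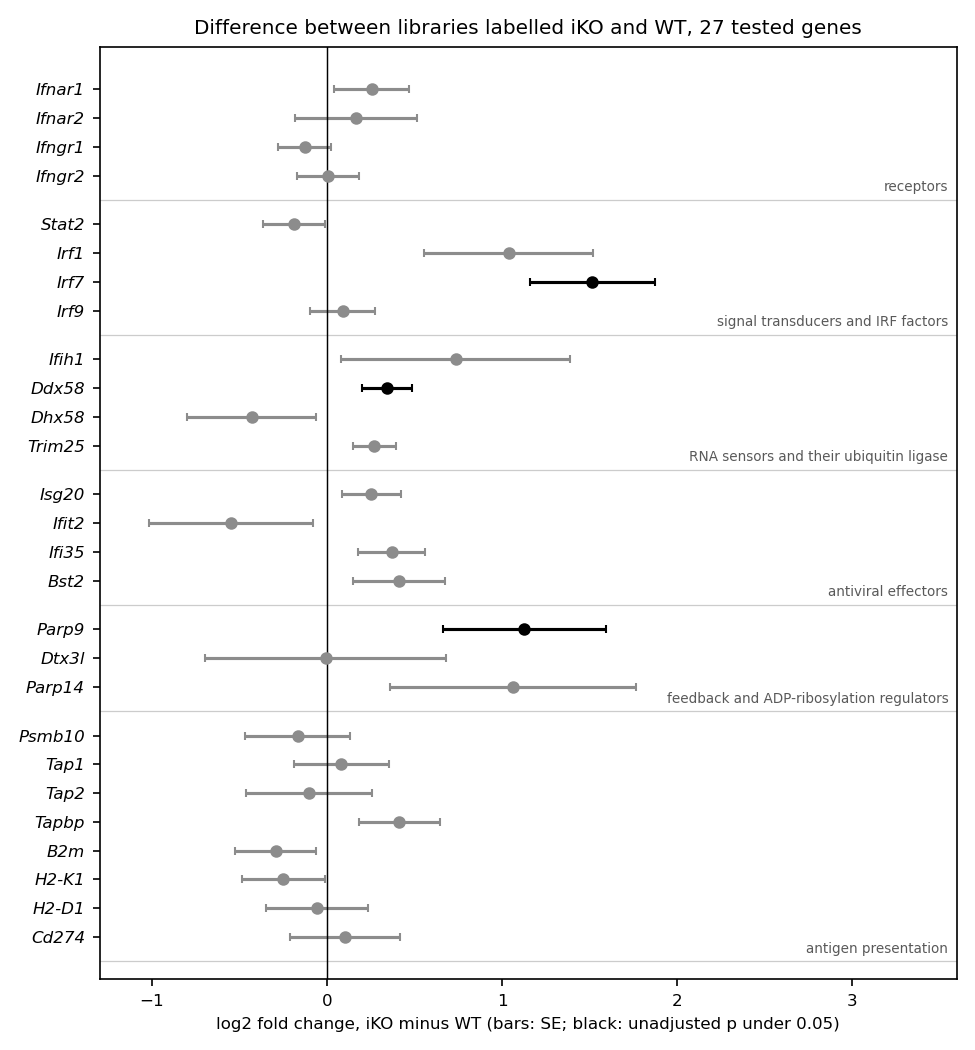
Log2 fold change of each of the 27 tested genes, libraries labelled iKO minus libraries labelled WT, by role. Bars show the approximate SE, and black points mark Irf7, Ddx58 and Parp9, the 3 genes with an unadjusted p under 0.05. No gene passed after adjustment.

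The 4 receptor genes were all expressed at a middle level and were close to each other. They lay between 16.3 TPM for Ifnar2, above 45.6% of tested genes, and 33 TPM for Ifngr1, above 63.7%. Ifngr1, which encodes the ligand-binding chain of the interferon gamma receptor, measured 30.1, 24.1 and 27.4 CPM in iKO 3, iKO 4 and iKO 33, against 29.7, 33.9 and 25.6 CPM in WT 2, WT 3 and WT 4. The groups overlapped, and the log2 fold change was -0.13 (SE 0.15, adjusted p = 0.746), from -0.24 without WT 4 to -0.023 without WT 3. Ifnar1, one chain of the type I receptor, had the largest difference among the receptors with all libraries and measured 41.1, 64.1 and 54.5 CPM in iKO 3, iKO 4 and iKO 33, against 44.4, 35.2 and 54.4 CPM in WT 2, WT 3 and WT 4. Its values in iKO 4, iKO 33 and WT 4 were the highest and those in iKO 3 and WT 3 the lowest, so the groups overlapped, with a log2 fold change of 0.25 (SE 0.22, adjusted p = 0.637) that ran from 0.10 without iKO 4 to 0.41 without WT 4. The other type I chain, Ifnar2, had a log2 fold change of 0.16 (SE 0.35, adjusted p = 0.871) and one of 0.46 without WT 4, and the signalling chain of the gamma receptor, Ifngr2, one of 0.01 (SE 0.18, adjusted p = 0.991). These 3 genes are neighbours on the same strand of chromosome 16, where Ifngr2 starts 61834 bases and Ifnar2 112455 bases from the start of Ifnar1.

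Among the transducers and IRF factors, Irf7 had the largest difference of all tested members. Irf7, which encodes the factor that amplifies type I interferon production, lies on chromosome 7 (141262706 to 141266481, minus strand, mm10). It measured 1.28, 1.31 and 0.953 CPM in iKO 3, iKO 4 and iKO 33, against 0.323, 0.532 and 0.341 CPM in WT 2, WT 3 and WT 4, from 40, 59 and 81 counts in the libraries labelled iKO and 7, 42 and 12 counts in those labelled WT. Every iKO library was above every WT library, at a level of 0.684 TPM above that of only 8.3% of tested genes. The exon length used for Irf7, 3776 bases, spans the whole gene, so this level and rank may be too low. The group means were 1.18 ± 0.198 CPM in the libraries labelled iKO and 0.398 ± 0.116 CPM in those labelled WT (SD, n = 3 each), and the log2 fold change of 1.52 (SE 0.36, adjusted p = 0.144) did not pass in edgeR. Its value stayed between 1.39 (without WT 4) and 1.81 (without WT 3) over the other settings that tested it, with adjusted p from 0.0321 to 0.633. The call depended on the tool and filter: DESeq2 gave an adjusted p of 0.0587 with the count filter and 0.0321 without it, where 756 genes passed (5.45%). In the authors' deposited table Irf7 had the same sign, with a log2 fold change of 0.96 and an adjusted p of 0.0237, the 1 member called there among 29 with an adjusted p (5.90% of all genes). Fold changes of scarce members were smaller in that table, such as 0.33 against 1.06 here for Parp14. The 0.96 and the 1.52 may therefore not be on the same scale.

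Irf1, an IRF factor induced by interferon gamma and by NF-κB, was the best expressed of this group at 8.14 TPM and the most variable. It measured 6.62, 20.2 and 12.2 CPM in iKO 3, iKO 4 and iKO 33, against 6.59, 3.44 and 9.07 CPM in WT 2, WT 3 and WT 4. The 2 highest values came from libraries labelled iKO, but iKO 3 was level with WT 2 and below WT 4. The log2 fold change was 1.04 (SE 0.48, adjusted p = 0.374), and it was 0.57 without iKO 4 and 1.39 without WT 4. Stat2 and Irf9, partners in ISGF3, stood at 4.66 and 3.14 TPM, and both overlapped between groups. The log2 fold change was -0.19 (SE 0.18, adjusted p = 0.666) for Stat2, or -0.10 without iKO 3, and 0.09 (SE 0.19, adjusted p = 0.867) for Irf9.

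The RNA sensors differed among themselves in level more than between groups. Ddx58, which encodes RIG-I, the sensor of short double-stranded and 5′-triphosphate RNA, stood at 15.8 TPM, while Ifih1, which encodes the long double-stranded RNA sensor MDA5, stood at 0.296 TPM and Dhx58, which encodes their relative LGP2, at 0.641 TPM. Ddx58 measured 31.9, 38.6 and 42.4 CPM in iKO 3, iKO 4 and iKO 33, against 29.6, 32.2 and 27.2 CPM in WT 2, WT 3 and WT 4. Values in iKO 4 and iKO 33 were above all WT libraries and iKO 3 was just below WT 3, with a log2 fold change of 0.34 (SE 0.14, adjusted p = 0.329). Trim25, the ubiquitin ligase that activates RIG-I and the best expressed of the group at 25.4 TPM, measured 45.8, 52.4 and 46.7 CPM in iKO 3, iKO 4 and iKO 33, against 39.7, 44.1 and 36.4 CPM in WT 2, WT 3 and WT 4. Its groups did not overlap, and its log2 fold change was 0.27 (SE 0.12, adjusted p = 0.361). Ifih1 had the largest difference of the group but ranged over both groups, 0.575, 0.80 and 1.29 CPM in iKO 3, iKO 4 and iKO 33, against 0.461, 0.177 and 1.02 CPM in WT 2, WT 3 and WT 4, with a log2 fold change of 0.73 (SE 0.66, adjusted p = 0.653). Its value was 0.25 without WT 3 and 1.62 without WT 4. Dhx58 had the opposite sign, with a log2 fold change of -0.43 (SE 0.37, adjusted p = 0.641) that was -0.21 without WT 2.

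Of the 16 antiviral effectors, 12 were too scarce to be tested. These were Isg15, the ubiquitin-like modifier; Ifit1 and Ifit3, which bind viral RNA; the 2′-5′-oligoadenylate synthetase genes Oas1a, Oas2, Oasl1 and Oasl2; the antiviral GTPase genes Mx1 and Mx2; and Rsad2, which encodes viperin, Ifi44 and Xaf1. With Usp18, Psmb8 and Psmb9 they make up the 15 untested members. These 15 genes together had 430 counts in all 6 libraries, at most 75 for 1 gene, and none exceeded 0.260 TPM on average or 0.555 CPM in any library. Isg15 measured 0.0320, 0.0888 and 0.0118 CPM in iKO 3, iKO 4 and iKO 33, against 0.0461, 0 and 0.171 CPM in WT 2, WT 3 and WT 4, with its highest value in WT 4 and no count in WT 3. Oas2 had no count in any library, where 3 counts would amount to 0.0353 to 0.0959 CPM in a library labelled iKO and 0.0380 to 0.138 CPM in a library labelled WT.

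Ifi44, which encodes a protein induced by type I interferon, was singled out after its values were seen. It had 24 counts in the libraries labelled iKO, spread over all 3, and 0 in those labelled WT. Against a limit of 3 counts for the WT libraries summed, its pooled level in the libraries labelled iKO was 6.74-fold higher. The limit covers counting error of the WT libraries only, and the 24 counts of Ifi44 were taken as observed. When genes of any count were tested, its adjusted p in edgeR was 0.149. In that fit none of the other 13 untested members with a count passed either, the smallest adjusted p among them being 0.429 for Oasl1. Oasl1, Xaf1 and Psmb9 likewise had higher CPM in every library labelled iKO than in any labelled WT, from 24, 75 and 43 counts in all. Of all tested genes 10.5% did so, and the share among untested genes was not computed.

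The 4 effectors that were tested had moderate levels. Ifi35, an interferon-induced leucine zipper protein, was highest at 25 TPM and measured 16.2, 11.6 and 16.7 CPM in iKO 3, iKO 4 and iKO 33, against 11.2, 12.8 and 10.4 CPM in WT 2, WT 3 and WT 4. Only iKO 4 was below a WT library, WT 3, and the log2 fold change was 0.37 (SE 0.19, adjusted p = 0.414). Isg20, a 3′-5′ RNA exonuclease, stood at 24.4 TPM with a log2 fold change of 0.25 (SE 0.17, adjusted p = 0.534), and Bst2, the tethering factor tetherin, at 13.9 TPM with one of 0.41 (SE 0.26, adjusted p = 0.521). Ifit2, the only IFIT gene that was tested, measured 1.12, 0.911 and 1.34 CPM in iKO 3, iKO 4 and iKO 33, against 1.29, 0.899 and 2.79 CPM in WT 2, WT 3 and WT 4. The single high value in WT 4 set its direction: the log2 fold change was -0.55 (SE 0.47, adjusted p = 0.638), and 0.05 without WT 4.

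The promoter windows show how the scarce and the abundant genes compare in sequence. RefSeq windows (GRCm38.p6, the mm10 build) from 250 bases before to 50 after a gene start were found for 34 of the 42 genes, 40 windows in all. Each was searched on both strands for the core letters of an ISRE, GAAA followed after any 2 bases by another GAAA, and for TTCNNNGAA, those of a GAS. The ISRE letters were in 10 of the 40 windows (25%), against 3.44% of all 32851 windows, and the GAS letters in 9 (22.5%), against 8.3% of all. A window with several matches counted once. A match is a description of letters and not evidence of binding. The 10 genes with ISRE letters were Isg15, Ifit1, Ifit3, Oas1a and Rsad2 among those not tested, and B2m, Bst2, Ddx58, Ifih1 and Stat2 among those tested. Their levels therefore ran from 0.0212 TPM (Ifit3) to 231 TPM (B2m), over nearly the whole range of the 42 genes. The 4 receptor genes had no ISRE letters in their windows, and Ifnar1 and Ifnar2 had GAS letters. The windows of Isg15 (chr4:156200769-156201068, minus strand) and Ifit1 (chr19:34640639-34640938, plus strand), both close to silent here, are shown with those of B2m (chr2:122147437-122147736, plus strand) and Bst2 (chr8:71537423-71537722, minus strand), both expressed, with ISRE matches in capitals.
Isg15: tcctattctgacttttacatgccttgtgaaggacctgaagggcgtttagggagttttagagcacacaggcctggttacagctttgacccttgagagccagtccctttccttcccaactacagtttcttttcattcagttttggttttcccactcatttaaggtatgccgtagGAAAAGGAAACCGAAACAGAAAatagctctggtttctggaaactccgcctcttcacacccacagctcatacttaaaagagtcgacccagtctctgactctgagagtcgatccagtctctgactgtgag
Ifit1: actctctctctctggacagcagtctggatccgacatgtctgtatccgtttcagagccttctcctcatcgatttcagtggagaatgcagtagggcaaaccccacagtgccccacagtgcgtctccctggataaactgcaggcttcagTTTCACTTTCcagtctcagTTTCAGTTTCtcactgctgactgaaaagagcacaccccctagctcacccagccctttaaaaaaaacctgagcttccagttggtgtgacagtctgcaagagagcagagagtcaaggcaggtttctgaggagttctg
B2m: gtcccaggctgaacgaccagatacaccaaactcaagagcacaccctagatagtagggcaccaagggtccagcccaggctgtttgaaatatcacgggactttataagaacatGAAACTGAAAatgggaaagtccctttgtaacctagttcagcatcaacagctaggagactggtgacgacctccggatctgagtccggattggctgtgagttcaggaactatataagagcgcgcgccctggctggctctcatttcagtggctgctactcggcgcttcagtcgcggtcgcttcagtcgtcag
Bst2: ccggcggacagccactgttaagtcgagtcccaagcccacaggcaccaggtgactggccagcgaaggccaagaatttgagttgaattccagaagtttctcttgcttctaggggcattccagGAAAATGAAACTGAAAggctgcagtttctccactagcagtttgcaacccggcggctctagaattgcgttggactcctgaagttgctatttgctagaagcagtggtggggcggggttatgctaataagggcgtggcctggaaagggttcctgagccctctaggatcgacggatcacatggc
In the Isg15 window 3 matches overlap in 1 run, GAAAAGGAAACCGAAACAGAAA, and in the Bst2 window 2 ISRE matches overlap in 1 run, whose first bases also belong to a match of the GAS letters, TTCCAGGAA. The Ifit1 window has 2 separate matches read on the opposite strand, TTTCACTTTC and TTTCAGTTTC, and the B2m window has 1, GAAACTGAAA. Irf7, with the largest difference between groups, had neither the ISRE nor the GAS letters in its window (chr7:141266375-141266674, minus strand), shown here without capitals, which says only that these letters are not in this stretch.
Irf7: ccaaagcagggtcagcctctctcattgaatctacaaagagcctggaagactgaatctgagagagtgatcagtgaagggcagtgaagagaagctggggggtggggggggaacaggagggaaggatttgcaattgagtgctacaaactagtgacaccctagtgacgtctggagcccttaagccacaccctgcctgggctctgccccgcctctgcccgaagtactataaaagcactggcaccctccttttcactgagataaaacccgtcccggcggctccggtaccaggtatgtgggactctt

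Feedback and ADP-ribosylation genes were low and uneven between libraries. Usp18, the protease that removes ISG15 and dampens type I receptor signalling, had 25 counts in all 6 libraries and was not tested. Parp9, which encodes an ADP-ribosyltransferase that works in a complex with the ubiquitin ligase of Dtx3l, was the best expressed at 2.55 TPM and measured 3.0, 5.78 and 6.49 CPM in iKO 3, iKO 4 and iKO 33, against 2.81, 1.14 and 3.13 CPM in WT 2, WT 3 and WT 4. Values in iKO 4 and iKO 33 were above every WT library, and iKO 3 lay between WT 2 and WT 4. The group means were 5.09 ± 1.84 CPM in the libraries labelled iKO and 2.36 ± 1.07 CPM in those labelled WT (SD, n = 3 each), with a log2 fold change of 1.13 (SE 0.46, adjusted p = 0.321) that was 0.78 without WT 3. Dtx3l measured 0.991, 2.44 and 2.39 CPM in iKO 3, iKO 4 and iKO 33, against 2.21, 0.481 and 3.27 CPM in WT 2, WT 3 and WT 4, with a log2 fold change of -0.01 (SE 0.69, adjusted p = 0.997). Parp14, a large ADP-ribosyltransferase of the same gene cluster, stood at 0.0995 TPM with a log2 fold change of 1.06 (SE 0.70, adjusted p = 0.534) that was 0.62 without WT 3 and 2.04 without WT 4.

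Parp9 and Dtx3l start head to head on chromosome 16, with starts 681 bases apart, and their annotated exons overlap by 458 bases on opposite strands. Where such reads went depends on counting settings that the sources used here do not state. The ratio of Parp9 to Dtx3l per length was 3.56, 2.78 and 3.20 in iKO 3, iKO 4 and iKO 33, against 1.49, 2.78 and 1.12 in WT 2, WT 3 and WT 4. The lowest iKO ratio, in iKO 4, was just below the highest WT ratio, in WT 3, so the ratios overlapped. In each group both genes were lowest in the same library, iKO 3 and WT 3.

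**Figure D3:**
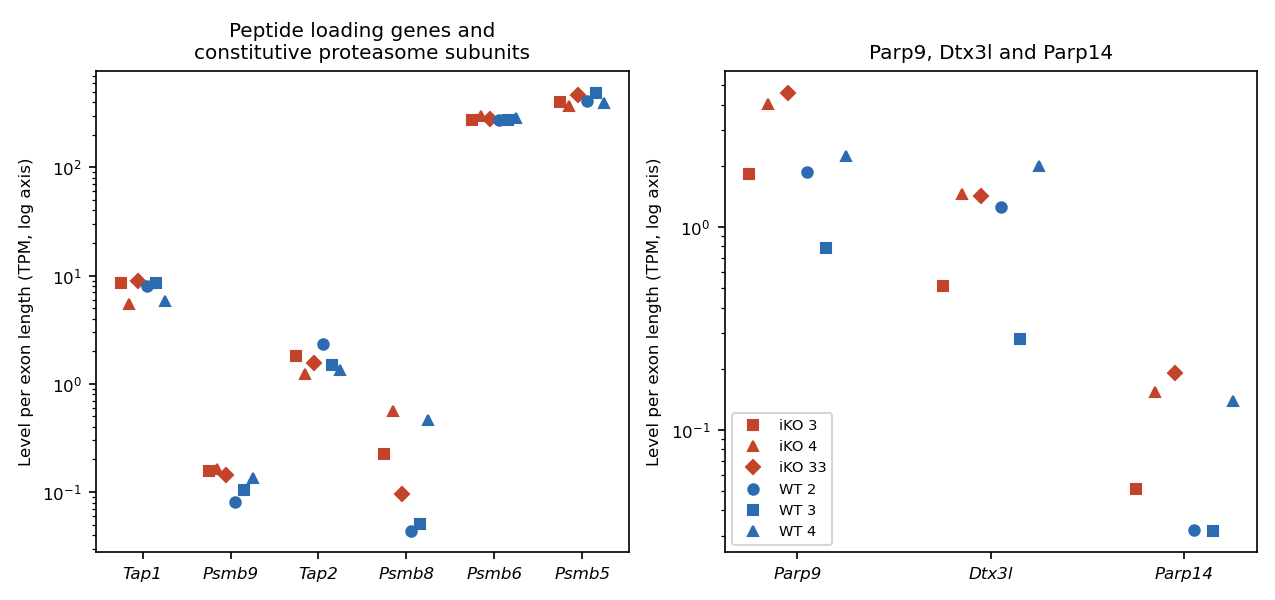
Level per exon length (TPM, log axis) by library for peptide-loading genes beside the constitutive proteasome subunit genes Psmb6 and Psmb5 (left), and for Parp9, Dtx3l and Parp14 (right), with libraries labelled iKO in red left of those labelled WT in blue. Tap1 lies 33 to 97.6 times above Psmb9 within each library, and Parp9 and Dtx3l are both low in iKO 3 and WT 3.

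Antigen presentation genes covered more than 3 orders of magnitude in level, with no called difference. B2m measured 39.2, 47.6 and 74.0 CPM in iKO 3, iKO 4 and iKO 33, against 62.3, 71.7 and 63.2 CPM in WT 2, WT 3 and WT 4. The 2 lowest values were iKO 3 and iKO 4 and the highest was iKO 33, so the spread within the libraries labelled iKO exceeded the difference between groups, 53.6 ± 18.1 CPM in the libraries labelled iKO and 65.7 ± 5.15 CPM in those labelled WT (SD, n = 3 each), with a log2 fold change of -0.29 (SE 0.23, adjusted p = 0.611). The value was -0.11 without iKO 3 and -0.60 without iKO 33. In a fit blocked by replicate number on the 4 libraries numbered 3 and 4, it was -0.64 (edgeR adjusted p = 0.163). The class I heavy chain genes H2-K1 and H2-D1, at 15.0 and 18.7 TPM, were lower than B2m per length in every library, by 11.2 to 19.3 times for H2-K1 and 7.75 to 22.1 times for H2-D1. H2-K1 (chromosome 17, 33996017 to 34000347, minus strand) measured 8.66, 14.5 and 13.1 CPM in iKO 3, iKO 4 and iKO 33, against 12.9, 12.7 and 17.6 CPM in WT 2, WT 3 and WT 4, with a log2 fold change of -0.25 (SE 0.24, adjusted p = 0.678) that was -0.061 without iKO 3 and -0.089 without WT 4. In the blocked fit the value of H2-K1 was -0.41 (edgeR adjusted p = 0.304). H2-D1 (chromosome 17, 35262730 to 35267499, plus strand) measured 15.2, 17.7 and 10.0 CPM in iKO 3, iKO 4 and iKO 33, against 14.3, 10.7 and 19.7 CPM in WT 2, WT 3 and WT 4, with a log2 fold change of -0.06 (SE 0.29, adjusted p = 0.950).

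Class I heavy chain counts are uncertain. Class I genes are near-identical in places and differ between mouse strains: of the 50-base stretches in the annotated transcripts, 9.63% of H2-K1 and 12.8% of H2-D1 also occur in another gene, chiefly other H2 genes. The same shares were 51.2% for Ifit3 and 57.6% for Oas1a, both untested, and under 8% for every other member. Alignments that were not unique were counted in a row of their own and not assigned to a gene. It held 21.7% to 26.5% of all counts, unassigned included, in the libraries labelled iKO, against 29.5% to 30.5% in those labelled WT. The sources used here do not state whether this row counts reads or alignments. Whether this share affects the class I values was not tested.

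The immunoproteasome genes stood far below their constitutive counterparts. Psmb8, Psmb9 and Psmb10 encode the catalytic subunits that replace those of Psmb5, Psmb6 and Psmb7 when cells meet interferon gamma, which changes the peptides made for class I. Per length, Psmb8 stood at 0.240 TPM and Psmb9 at 0.131 TPM, against 423 TPM for Psmb5 and 282 TPM for Psmb6. In each library Psmb6 exceeded Psmb9 at least 1776-fold and Psmb5 exceeded Psmb8 at least 668-fold. Psmb8 had 8, 25 and 8 counts in the libraries labelled iKO and 1, 4 and 16 in those labelled WT. Psmb9 had 6, 8 and 13, and 2, 9 and 5, so these folds rest on few counts. The folds also depend on exon length, 3381 bases for Psmb8 and 3660 for Psmb9, against 899 for Psmb5 and 1872 for Psmb6. Mean CPM of Psmb8 and Psmb5 were 0.302 and 115 in the libraries labelled iKO, and 0.184 and 116 in those labelled WT. Psmb10 was different, at 14.5 TPM, and Psmb7 exceeded it by 13.5 to 28.4 times. The log2 fold change of Psmb10 was -0.17 (SE 0.30, adjusted p = 0.841).

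Peptide transport genes stood well above their immunoproteasome neighbours on chromosome 17. Tap1 and Tap2 encode the transporter that carries peptides into the endoplasmic reticulum, and Tapbp encodes tapasin, which bridges it to class I. Tap1 and Psmb9 lie head to head on chromosome 17, with starts 211 bases apart and 212 bases of overlapping annotated exons on opposite strands. Tap1 stood at 7.55 TPM and Psmb9 at 0.131 TPM. Tap1 was 54.8, 33 and 62.9 times above Psmb9 in iKO 3, iKO 4 and iKO 33, against 97.6, 82.8 and 43.2 times in WT 2, WT 3 and WT 4. These ratios rest on 6, 8 and 13 counts of Psmb9 in the libraries labelled iKO and 2, 9 and 5 counts in those labelled WT. The overlapping stretch is 3.87% of the exon bases of Tap1 and 5.79% of those of Psmb9. The window at the Tap1 start (chr17:34187306-34187605, plus strand), which covers nearly all of the Psmb9 window as well, had no ISRE or GAS letters and is shown because of this difference in level.
Tap1: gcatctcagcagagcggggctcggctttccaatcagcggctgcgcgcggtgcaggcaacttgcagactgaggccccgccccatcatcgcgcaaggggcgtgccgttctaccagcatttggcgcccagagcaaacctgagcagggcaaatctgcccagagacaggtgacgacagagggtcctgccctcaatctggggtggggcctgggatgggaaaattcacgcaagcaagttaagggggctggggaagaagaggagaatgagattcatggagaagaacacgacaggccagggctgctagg
Tapbp had the largest difference of the presentation genes and measured 25.5, 27.9 and 41.5 CPM in iKO 3, iKO 4 and iKO 33, against 26.9, 25.8 and 18.6 CPM in WT 2, WT 3 and WT 4. The single high value in iKO 33 weighed on it: the log2 fold change was 0.41 (SE 0.23, adjusted p = 0.451), and 0.17 without iKO 33. Of the exon bases of Tapbp, 29.0% overlap those of another annotated gene. Tap1, Tap2 and Cd274, which encodes the T cell inhibitory ligand PD-L1, also overlapped between groups. The log2 fold change was 0.08 (SE 0.27, adjusted p = 0.923) for Tap1, -0.10 (SE 0.36, adjusted p = 0.929) for Tap2 and 0.10 (SE 0.31, adjusted p = 0.914) for Cd274.

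Much of the variation of these genes lay between libraries of the same group. WT 3 was the lowest library for 9 of the 27 tested genes (33.3%, against 20.9% of all tested genes), and iKO 33 the highest for 8 (29.6%, against 14.0%). The library labelled iKO 3 was the lowest of its group and WT 3 the lowest of its own for the same 10 of 27 genes (37%, against 16.0% of all tested genes). These were Ifnar1, Ifnar2, Ifngr2, Irf1, Ifih1, Parp9, Dtx3l, Parp14, Psmb10 and H2-K1. The median deviation of the 27 genes from their 6-library means was -0.09 in iKO 3, 0.16 in iKO 4, 0.13 in iKO 33, -0.01 in WT 2, -0.25 in WT 3 and 0.12 in WT 4 on the log2 CPM scale. This pattern was picked after the values were seen, is a description with no test, and members share libraries and depth, so they are not replicates of it. Both iKO 3 and WT 3 carry the number 3, and whether they share an origin was not tested.

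**Figure D4:**
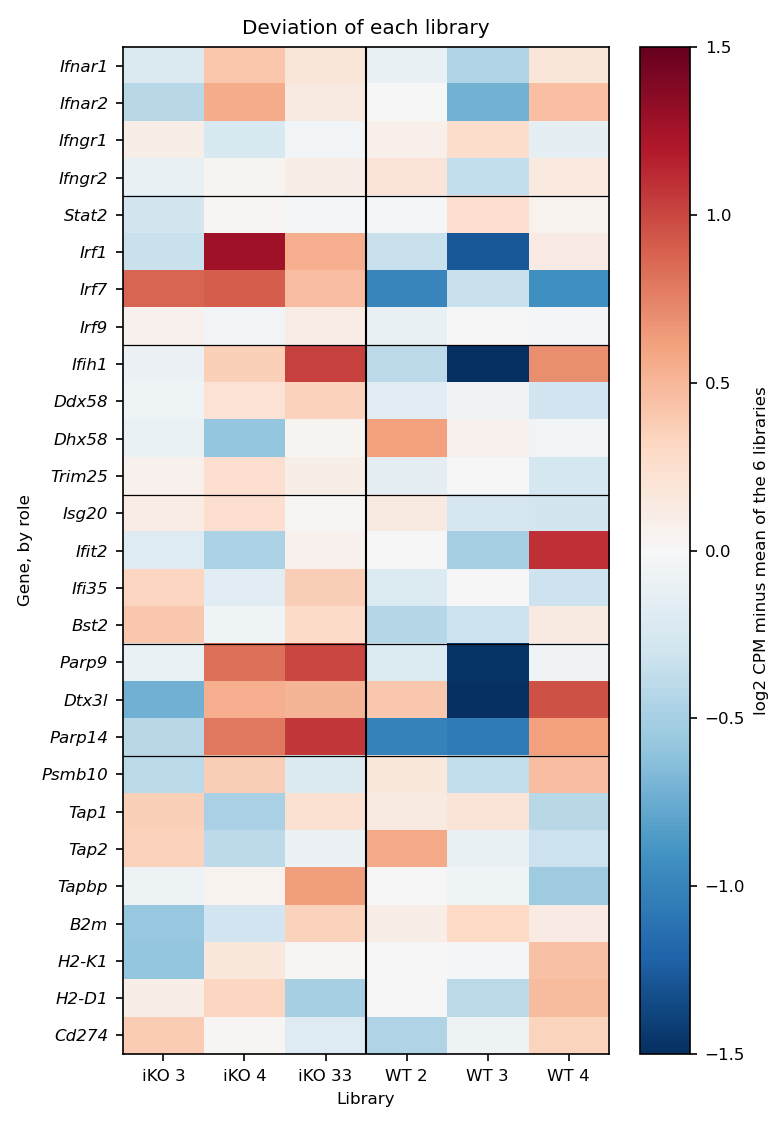
Deviation of each library from the mean of the 6 libraries for the 27 tested genes, in log2 CPM, with libraries labelled iKO left of the black line and those labelled WT right of it. Colours are limited at 1.5, which 2 values exceed. Blue cells mark both iKO 3 and WT 3 for Ifnar1, Ifnar2, Ifngr2, Irf1 and Parp9, while Irf7 is red in all libraries labelled iKO and blue in all labelled WT.

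Other genes of the pathway were followed from a list of 96, of which 95 were in the table and 60 were tested. Of 10 interferon genes, 9 had no count in any library, among them Ifnb1, Ifng and the keratinocyte interferon gene Ifnk, and Ifne had 2 counts in all. None of the 60 passed in edgeR after adjustment (0.339% of all tested genes). An unadjusted p under 0.05 in edgeR was found for 7 (15.0%), all with higher values in the libraries labelled iKO (7.32%). The groups did not overlap for 13 (21.9%). In sign, 40 were higher and 20 lower (51.2% and 48.8% of all tested genes), with a median log2 fold change of 0.16. DESeq2 called 2, Irf5 and Psme2, where it called 6.12% of all tested genes. Irf5, an IRF factor of innate sensing, measured 1.57, 1.27 and 1.88 CPM in iKO 3, iKO 4 and iKO 33, against 0.507, 0.595 and 0.370 CPM in WT 2, WT 3 and WT 4, with a log2 fold change of 1.67 (SE 0.34, adjusted p = 0.109) in edgeR and an adjusted p of 0.0134 in DESeq2. Psme2, a subunit of the proteasome activator PA28 that aids class I peptide supply, measured 29.6, 29.0 and 33.2 CPM in iKO 3, iKO 4 and iKO 33, against 23.1, 23.8 and 21.5 CPM in WT 2, WT 3 and WT 4, with a log2 fold change of 0.42 (SE 0.12, adjusted p = 0.182) in edgeR and an adjusted p of 0.0432 in DESeq2. Its partner Psme1 measured 20.6, 26.4 and 24.6 CPM in iKO 3, iKO 4 and iKO 33, against 18.4, 15.4 and 19.9 CPM in WT 2, WT 3 and WT 4, with a log2 fold change of 0.42 (SE 0.16, adjusted p = 0.290). The groups did not overlap for any of these 3 genes.

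Of the 16 tested kinases, factors and inhibitors, 12 were higher and 4 lower (51.2% and 48.8% of all tested genes). The receptor kinase gene Jak1 measured 166, 159 and 149.9 CPM in iKO 3, iKO 4 and iKO 33, against 137, 127 and 139.5 CPM in WT 2, WT 3 and WT 4, with a log2 fold change of 0.24 (SE 0.10, adjusted p = 0.330). Stat3, which encodes a factor downstream of many cytokine receptors, measured 193, 146 and 159.8 CPM in iKO 3, iKO 4 and iKO 33, against 143, 129 and 121 CPM in WT 2, WT 3 and WT 4, with a log2 fold change of 0.35 (SE 0.14, adjusted p = 0.307). Ptpn6, which encodes the phosphatase SHP-1, measured 13.2, 12.2 and 12.8 CPM in iKO 3, iKO 4 and iKO 33, against 10.2, 9.03 and 10.5 CPM in WT 2, WT 3 and WT 4, with a log2 fold change of 0.36 (SE 0.14, adjusted p = 0.311). Igtp, an interferon-induced GTPase gene, measured 0.288, 0.60 and 0.553 CPM in iKO 3, iKO 4 and iKO 33, against 0.184, 0.0253 and 0.256 CPM in WT 2, WT 3 and WT 4, with a log2 fold change of 1.81 (SE 0.76, adjusted p = 0.330). Every library labelled iKO was above every library labelled WT for these 4 genes, and none passed after adjustment in edgeR.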

How the data were processed

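mRNA was sequenced from 3 libraries labelled iKO and 3 labelled WT. The deposited table holds raw counts per gene symbol. TopHat2, HTSeq, DESeq and DESeq2 are named in the submitters' processing notes, with no versions there, and the genome build is mm10; the sources used here state neither counting strand nor annotation. The authors' deposited table of comparisons holds, per the file headers, a log2 fold change, p-values, a mean signal of normalised counts and a test score per gene; 27 of its symbols had been turned into dates. Of all counts, 27.4% to 35.5% per library lay in 5 rows that name no gene and were left out. The column of iKO 33 names its group, not which titled sample it is, and carries no pairing.

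Genes past edgeR's filterByExpr (minimum count 10) were tested with edgeR 4.0.16 (TMM scaling, robust quasi-likelihood test, Benjamini-Hochberg adjustment over all tested genes) in R 4.3.3. SEs are approximate and follow from the fold change and its F statistic. Alternatives used DESeq2 1.42.0, limma-voom 3.58.1, other scalings and filters, and each library left out. Log2 CPM used a prior count of 2. TPM were computed here from the deposited counts and GENCODE M21 exon lengths, found for 21777 symbols (93.0%), so lengths may differ from those of the authors' annotation. Each length merges the exons of all annotated transcripts of a gene, so genes with long alternative transcripts may read low in TPM. Floors of 3 counts cover counting error only. Between libraries, chi-square over its degrees of freedom was 51.7 or more, so no column was taken as a repeat count of another. Each library was counted as its own sample, though this value cannot show that libraries came from separate cultures or animals. The fitting code was tested on simulated data.

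The members, role groups and pathway lists were chosen with earlier results of these data known. Values per library are given for members with an unadjusted p under 0.05 in edgeR or an adjusted p under 0.05 in DESeq2, for the member with the largest difference and the highest level in each role, and for H2-K1, H2-D1 and B2m; pathway genes followed the same p rule, with the interferons added; 1 further pathway gene is not reported here. Dtx3l, Isg15, Ifi44, Oasl1, Xaf1, Psmb9 and the gene pairs set side by side were singled out after their values were seen.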

Additional observations from a re-analysis of the deposited data

How the results depend on the processing

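No member passed in edgeR, DESeq2 or limma-voom under the alternatives that kept the count filter or used edgeR, and the median log2 fold change of the tested members stayed between 0.07 and 0.26. Chosen after seeing the data, DESeq2 without a count filter called 1 member, Irf7 (log2 fold change 1.5), and 1 pathway gene, Irf5; DESeq2 with the filter called 2 pathway genes, Irf5 and Psme2. Over all genes, 43 passed in edgeR, 76 without a count filter, 775 with DESeq2, 756 with DESeq2 without a filter, and 7 to 31 when 1 library was left out.

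Only 2 replicate numbers, 3 and 4, occur in both groups. The replicate block on those 4 libraries called 0 members, 0 pathway genes and 103 genes in all, against 4 genes for the same libraries unblocked. The deviations of the numbered pairs had a correlation of 0.60 across 12672 genes, and 2 pairs are too few to treat the numbers as pairing. The main fit has no block, so any variation shared by libraries of the same number remains in its spread. Under the block, Dtx3l stood at 0.24, Tap2 at 0.21 and H2-D1 at 0.18, all reversed; unblocked, Tap2 stood at 0.24 and H2-D1 at 0.12. Parp14 stood at 0.43 under the block and 0.47 unblocked. The block gave the largest difference of all settings for B2m (-0.64), H2-K1 (-0.41) and Stat2 (-0.27), with edgeR adjusted p of 0.163, 0.304 and 0.558. It gave the smallest for Irf9 (0.024), Ddx58 (0.25) and Ifi35 (0.25). The lowest adjusted p of Irf1, 0.0958 in edgeR, was also under the block.

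Members near 0 reversed elsewhere too: Ifngr2 stood at -0.0125 with library totals, and Dtx3l at 0.0026 without a filter and 0.65 with limma-voom. With 1 library left out, values ran from -0.49 to 0.60 for Dtx3l, from -0.10 to 0.30 for Tap1, from -0.068 to 0.31 for Cd274, from -0.10 to 0.46 for Ifnar2, from -0.16 to 0.10 for Ifngr2, from -0.32 to 0.20 for Tap2, from -0.25 to 0.19 for H2-D1, from -0.87 to 0.052 for Ifit2 and from -0.43 to 0.037 for Psmb10. The cause of these changes was not tested. The 15 untested members had 75 counts or fewer each, and whether deeper libraries would show a difference was not tested.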
